A study of Mus musculus with 2 samples.

Results

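The zona pellucida and sperm-egg interaction genes were the 6 genes Zp1, Zp2, Zp3, Astl, Izumo1r (which encodes Juno) and Cd9, picked by name from the 11262 genes of the deposited expression table. RNA-seq values were compared between the second polar body (PB2), the small cell extruded at fertilization, and the zygote, both from untreated mouse embryos at the late one-cell stage. Whether the pooled zygotes were those from which the pooled PB2s were detached is not stated. The strain is C57BL/6 in the labels and C57BL/6N in the study's methods. There was 1 library of pooled PB2s and 1 library of pooled zygotes, so no spread between replicates was known, no test was run, and every value below describes these libraries only. The zona pellucida itself was dissolved with acid Tyrode's solution and PB2 was detached in trypsin before lysis, so the transcripts were measured in cells that had lost their coat.

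The zona pellucida is the extracellular glycoprotein matrix that the growing oocyte lays around itself, built in the mouse from the proteins ZP1, ZP2 and ZP3. Sperm bind this coat, cross it and fuse with the egg membrane, where Juno receives the sperm protein IZUMO1 and the tetraspanin CD9 is needed for fusion. After fertilization, cortical granules release ovastacin, the protease encoded by Astl, which cuts ZP2 so that further sperm cannot bind, and Juno is shed from the membrane. These genes are transcribed in the growing oocyte, and the RNA found at the one-cell stage is mostly a maternal store that both PB2 and the zygote inherit.

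Values are TPM, which measure how abundant a gene's transcripts are, adjusted for gene length and scaled to a fixed total in each library. They give proportions within a library and no record of the reads behind them, so the depth is unknown and fewer transcripts per cell cannot be told apart from a different amount of other RNA. The log2 ratio is log2((PB2 TPM + 1)/(zygote TPM + 1)), which understates the change of genes of a few TPM or less. Such a gene can be more than 2-fold apart in plain TPM and fall short of 2-fold in the log2 ratio. All fold counts below use the log2 ratio. Over the 10645 genes with at least 1 TPM in either library the median log2 ratio was 0.21, so the distribution was centred a little towards PB2. The log2 ratio also followed transcript GC content across genes, with a median of -0.36 among the genes lowest in GC content and 0.93 among the highest, with the genes split into 10 groups of equal size. Both libraries held oocyte RNA. All 10 oocyte markers examined were in the table, from 6.8 TPM for Figla to 13021 TPM for Oosp1 in the zygote and from 5.9 to 10496 TPM for the same genes in PB2. Of 15 cumulus and granulosa markers, 5 were in the table, and they summed to 81.7 TPM in the zygote against 84.8 TPM in PB2, of which Cyp19a1 held 72.2 and 70.9 TPM, Nr5a2 7.0 and 8.4 TPM and Fshr 2.2 and 3.3 TPM, while Cyp11a1 had 0.80 TPM in PB2 and was at 0 in the zygote.

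All 6 transcripts were present in PB2 and in the zygote. Zp1, Zp3, Astl and Izumo1r had the higher TPM in PB2, and Zp2 and Cd9 had the higher TPM in the zygote. Higher in PB2 were 59.2% of all genes compared and higher in the zygote 40.0%, so a split of 4 and 2 lies near that of the table. Astl and Zp1, 2 of the 6, passed 2-fold towards PB2, as did 18.9% of all genes compared, and 0 of the 6 passed it towards the zygote, as did 8.09%. Astl passed 2-fold under all 7 alternatives run on its log2 ratio. Zp1 fell short under 3 of them, with log2 ratios of 0.52 without the GC trend, 0.97 without the length trend and 0.98 when centred on the median of all genes, and without the length trend Zp3 passed instead, at 1.02. Past 1.5-fold towards PB2 were 4 of the 6, against 34.2% of all genes. The median log2 ratio of the 6 genes was 0.87.

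**Figure D1:**
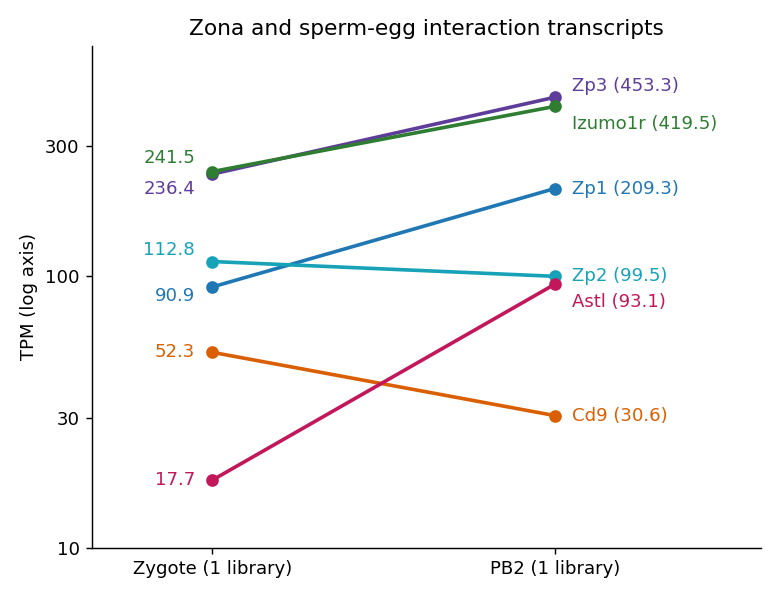
TPM of each of the 6 genes (log axis) in the zygote library and the PB2 library, with 1 point per library and no error bars because there were no replicates. The lines of Zp1 and Zp2 cross, as do those of Astl and Cd9, while Zp3 and Izumo1r stay together at the top.

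The order of the levels differed between the libraries. In the zygote Izumo1r was highest at 241.5 TPM, next to Zp3 at 236.4 TPM, and these were followed by Zp2 at 112.8, Zp1 at 90.9, Cd9 at 52.3 and Astl at 17.7 TPM. In PB2 Zp3 came first at 453.3 TPM with Izumo1r at 419.5 TPM, followed by Zp1 at 209.3, Zp2 at 99.5, Astl at 93.1 and Cd9 at 30.6 TPM. Without replicates it cannot be said which neighbours in these orders differ beyond their spread. Summed over the 6 genes the level was 751.6 TPM in the zygote against 1305 TPM in PB2, or 0.0752% and 0.131% of a full library.

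The 3 zona genes were not alike in their ratios. Zp1 (ENSMUSG00000024734) encodes the protein that cross-links zona filaments. In GENCODE M21 on GRCm38, from which all gene positions here were taken, it is annotated from 10914287 to 10920632 of chromosome 19, minus strand, with 12 exons in its longest coding transcript. It went from a zygote value of 90.9 TPM to 209.3 TPM in PB2, a ratio of 2.30 and a log2 ratio of 1.19, and 13.4% of all genes compared had a larger log2 ratio. Zp2 (ENSMUSG00000030911), which encodes the protein that ovastacin cuts, lies on the minus strand of chromosome 7 from 120126772 to 120145291 and has 18 exons. It had 112.8 TPM in the zygote against 99.5 TPM in PB2, so its log2 ratio was -0.18, and 67.3% of the genes had a larger one. Zp3 (ENSMUSG00000004948) encodes the partner with which ZP2 builds the filaments, and lies on the plus strand of chromosome 5 from 135980099 to 135988624 with 8 exons. It went from 236.4 to 453.3 TPM, a ratio of 1.92 and a log2 ratio of 0.94, with 20.9% of the genes above it. The deposited values have 1 decimal, and that rounding moves the ratios of Zp1 and Zp3 by less than the digits given here.

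Ratios between genes within a library do not depend on how the libraries were scaled, and they show the same split. Zp1 stood at 0.806 times the level of Zp2 in the zygote and at 2.10 times in PB2. Zp3 stood at 2.10 times the level of Zp2 in the zygote and at 4.56 times in PB2. Between Zp3 and Zp1 the ratio was closer, 2.60 in the zygote and 2.17 in PB2. Of the summed zona transcripts, Zp2 made up 25.6% in the zygote and 13.1% in PB2, Zp1 20.7% and 27.5%, and Zp3 53.7% and 59.5%. The sum of the 3 genes was 440.1 TPM in the zygote against 762.1 TPM in PB2, a ratio of 1.73. Scale-free as they are, these ratios still compare transcripts of unequal GC content, 47.1% for Zp2 against 55.1% for Zp1 and 56.1% for Zp3.

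The promoter of Zp3 is shown because zona genes share E-boxes, the CANNTG motif bound by basic helix-loop-helix factors such as FIGLA, the oocyte factor required for zona gene transcription. RefSeq promoter windows, from 250 bases before to 50 after the start on GRCm38.p6, were found for 4 of the 6 genes, with 2 windows for Astl. Only the part before the first annotated exon base is printed, with E-boxes in capitals. For Zp3 this is the plus strand of chr5:135979855-135980098.
Zp3: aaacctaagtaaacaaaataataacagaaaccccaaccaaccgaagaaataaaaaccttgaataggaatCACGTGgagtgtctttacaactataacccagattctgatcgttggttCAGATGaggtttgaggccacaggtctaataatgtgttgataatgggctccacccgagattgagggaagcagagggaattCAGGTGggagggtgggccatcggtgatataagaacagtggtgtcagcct
This stretch holds 3 E-boxes, a CACGTG that begins 181 bases before the start, a CAGATG at 134 and a CAGGTG at 55. Any CANNTG was found in 72.3% of all 32851 promoter windows of this length, CACGTG in 7.15% and CAGGTG, read on both strands, in 20.2%; CACGTG and CAGGTG are themselves forms of CANNTG. The TATAA motif, also searched on both strands, occurs at 29 and 160 bases before the start, and 24.9% of all windows hold it. A match is a description of these letters and was not tested as a binding site.

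Astl (ENSMUSG00000050468) showed the largest difference of the 6. It encodes ovastacin, a zinc metalloprotease of the astacin family that is stored in cortical granules, and it lies on the plus strand of chromosome 2 from 127338639 to 127357651, with 9 exons in its longest coding transcript. It had 17.7 TPM in the zygote, the lowest of the 6 there, and 93.1 TPM in PB2, a ratio of 5.26 (5.24 to 5.28 with rounding) and a log2 ratio of 2.33. Only 106 of the 10645 genes, 0.996%, had a larger log2 ratio, and 2.48% of all genes passed 4-fold in that direction. Other oocyte transcripts had ratios of this size. Of the 10 oocyte markers 3 passed 2-fold towards PB2, against 18.9% of all genes, and 0 towards the zygote, against 8.09%. These were Zar1 (157.9 to 1019.2 TPM, log2 ratio 2.68), Mos (62.7 to 310.1 TPM, 2.29) and Gdf9 (1.46). The median of the 10 was 0.63, and 4 were higher in the zygote. With the GC trend removed Zar1 kept 1.67 and Mos 1.75. In the zygote 36.8% of all genes in the table lay above Astl, and in PB2 13.4% did. Against each of the other members Astl was relatively more abundant in PB2, since it stood at 0.157 times the level of its substrate Zp2 in the zygote and at 0.936 times in PB2, and at 0.338 and 3.04 times the level of Cd9.

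Astl has 2 starts in RefSeq, and their upstream sequences are printed side by side because they differ in E-boxes. The first is chr2:127338389-127338638 and the second, which lies downstream within the gene, is chr2:127341386-127341629, both on the plus strand.
Astl, first start: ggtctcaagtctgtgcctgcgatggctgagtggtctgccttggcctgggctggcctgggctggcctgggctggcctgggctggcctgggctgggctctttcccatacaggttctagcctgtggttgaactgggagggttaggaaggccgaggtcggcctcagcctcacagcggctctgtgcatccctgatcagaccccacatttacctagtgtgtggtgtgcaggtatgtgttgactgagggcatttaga
Astl, second start: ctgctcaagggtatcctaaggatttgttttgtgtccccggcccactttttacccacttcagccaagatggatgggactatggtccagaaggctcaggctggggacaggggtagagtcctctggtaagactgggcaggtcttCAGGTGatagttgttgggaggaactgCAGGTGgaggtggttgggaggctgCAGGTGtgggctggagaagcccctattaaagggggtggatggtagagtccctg
The stretch before the first start holds no CANNTG. The one before the second start holds 3, and each of them is CAGGTG, at 109, 83 and 59 bases before the start, that is in steps of 26 and 24 bases. Neither holds TATAA. Gene-level TPM does not tell which start the transcripts of either library came from.

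Izumo1r (ENSMUSG00000031933), the gene of Juno, a glycosylphosphatidylinositol-anchored protein of the folate receptor family, stayed close to Zp3 in both libraries. It lies on the minus strand of chromosome 9 from 14885814 to 14903949 and its longest coding transcript has 5 exons. It had 241.5 TPM in the zygote against 419.5 TPM in PB2, a ratio of 1.74 and a log2 ratio of 0.79, and 26.0% of all genes compared had a larger one. Zp3 stood at 0.979 times the level of Izumo1r in the zygote and at 1.08 times in PB2. Few genes of the table lay above it, 4.89% in the zygote and 2.64% in PB2. Its promoter window holds 1 E-box, CACCTG on the gene's strand and so CAGGTG on the other, which begins 57 bases before the start in a stretch that GENCODE annotates as exon and that is not printed. Of the other folate receptor and folate carrier genes listed, Slc19a1 was the 1 in the table, at 0.50 TPM in the zygote against 0.70 TPM in PB2.

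Cd9 (ENSMUSG00000030342) was the gene with the largest difference towards the zygote. It encodes a tetraspanin, a protein with 4 membrane-spanning segments that organises other proteins in the egg's microvilli, and lies on the minus strand of chromosome 6 from 125460266 to 125494791 with 8 exons. It had 52.3 TPM in the zygote against 30.6 TPM in PB2, so the zygote value was 1.71 times that of PB2 (1.70 to 1.71 with rounding), a log2 ratio of -0.75. Of all genes compared, 13.1% had a smaller log2 ratio, and 18.1% passed 1.5-fold in that direction, as Cd9 did. Cd9 overlaps 2 annotated genes on the opposite strand, Gm26728 and Gm28809, and since stranded counting is not stated, reads of these cannot be told apart from those of Cd9. The other members overlap no annotated gene.

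The sequence before the start of Cd9, on the minus strand of chr6:125494792-125495010, is shown for contrast with those of Zp3 and Astl.
Cd9: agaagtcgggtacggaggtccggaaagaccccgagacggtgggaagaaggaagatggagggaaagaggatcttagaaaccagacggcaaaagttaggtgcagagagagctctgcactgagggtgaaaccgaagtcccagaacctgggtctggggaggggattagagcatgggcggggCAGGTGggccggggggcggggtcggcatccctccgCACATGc
It holds a CAGGTG at 73 and a CACATG at 38 bases before the start, and the whole window holds 2 copies of the GC-box GGGCGG, searched on both strands, which 35.7% of all windows carry and which was found in none of the windows of Zp3, Astl and Izumo1r. The Cd9 window has 18 CG dinucleotides, against 7 in that of Zp3, 5 and 1 in those of Astl, 3 in that of Izumo1r and a median of 7 over all windows. At least 1 CAGGTG, read on both strands, was thus found in a window of each of the 4 genes that had one, in both the genes higher in PB2 and the one higher in the zygote. The first of the Astl windows held none, and 20.2% of all windows carry the motif. Because it was searched after the windows were seen, no conclusion is drawn from this count.

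**Figure D2:**
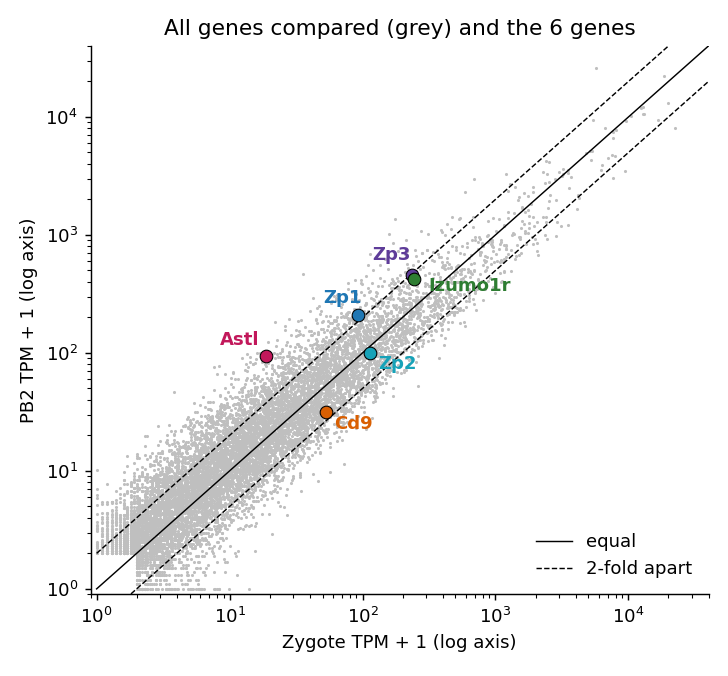
TPM + 1 in PB2 against TPM + 1 in the zygote (log axes) for the 10645 genes compared (grey points) with the 6 genes in colour, the line of equal values and dashed lines 2-fold apart. Astl lies far above the upper dashed line and Zp1 just above it, Zp3 and Izumo1r lie between the lines of equality and 2-fold, and Cd9 lies towards the lower dashed line.

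The members that were higher in PB2 were those with GC-rich transcripts. The GC content of the longest coding transcript was 56.7% for Izumo1r, 56.1% for Zp3, 55.1% for Zp1 and 53.3% for Astl, all above the median of 49.1% over the genes compared, and 47.1% for Zp2 and 45.9% for Cd9, both below it. Over all genes the loess trend at the GC content of Izumo1r was 0.79, so that its log2 ratio with the trend removed was 0.0027. Its 5 coding transcripts range from 52.0% to 58.5% in GC content, so the value left for Izumo1r depends on the transcript taken. For Zp3 the trend value was 0.75 and 0.19 was left, and for Zp1 it was 0.67 and 0.52 was left. Astl kept 1.81 of its 2.33, and 0.811% of the genes had a larger value after removal of the trend. For Zp2 and Cd9 the trend was close to 0, and -0.23 and -0.74 remained. The order of the members from Astl to Cd9 was therefore Astl, Zp1, Zp3, Izumo1r, Zp2 and Cd9 with the trend removed as well as without.

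**Figure D3:**
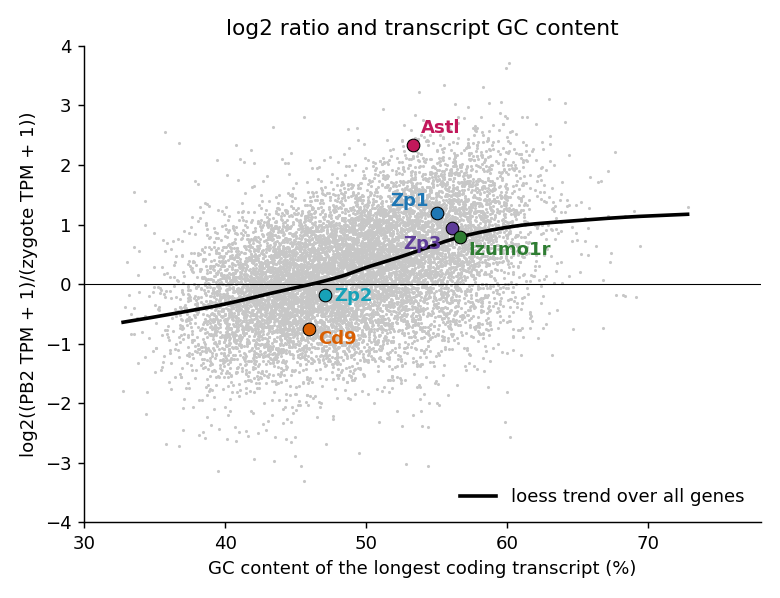
log2 ratio of PB2 over zygote against the GC content of the longest coding transcript (%) for 10606 genes (grey points), with the loess trend over all genes (black line) and the 6 genes in colour. Izumo1r and Zp3 lie on or just above the trend, Zp1 somewhat above it, Astl far above it, and Zp2 and Cd9 below it.

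The genes nearest to each member in both libraries were found by the distance of log2(TPM + 1) over the 2 libraries. Nearest to Zp1 were Zswim3 (93.0 TPM in the zygote against 199.1 TPM in PB2) and Tle6 (94.2 and 200.2 TPM), at distances of 0.079 and 0.082. Nearest to Zp2 were Smim26 and 5730480H06Rik, at 0.0090 and 0.027. Trim75 (245.5 TPM in the zygote against 434.4 TPM in PB2) was nearest to both Zp3 and Izumo1r, at 0.082 and 0.056, followed by Dcakd for Zp3 and Plat, which encodes tissue plasminogen activator, for Izumo1r. Nearest to Astl were Gse1 (18.1 and 92.2 TPM) and Mpped1, and nearest to Cd9 were Fignl1 and Atp5j2. With only 2 libraries many genes share a position, and closeness says no more than that the values are alike.

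Among 13 listed transcription factors and regulators around the zona genes, 11 were in the table and 10 were compared. Of these 10, 2 passed 2-fold towards PB2 and 1 towards the zygote, against 18.9% and 8.09% of all genes, so the counts lie near those shares. The median log2 ratio was 0.39, and 0.031 with the GC trend removed. The counts then stayed at 2 and 1, against 9.08% and 11.0% of all genes. Figla, which encodes the E-box factor, was scarce and nearly equal, with 6.8 TPM in the zygote against 5.9 TPM in PB2. Tcf3, which encodes the E-box proteins that can pair with FIGLA, went from 4.0 to 21.8 TPM, and Lhx8, an oocyte homeobox gene, from 42.0 to 147.7 TPM. Nobox, another oocyte homeobox gene, had 223.5 TPM in the zygote against 312.0 TPM in PB2. Tbpl2, which encodes the oocyte form of the TATA-binding protein, had 33.9 TPM in the zygote against 14.4 TPM in PB2. Id2, an inhibitor of E-box proteins, had 21.9 TPM in both.

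Zona proteins pass through the secretory pathway, where they are folded, disulfide-bonded, glycosylated and cut from their membrane anchor. Of 24 genes listed for these steps 18 were compared, and 7 passed 2-fold towards PB2 and 2 towards the zygote, against 18.9% and 8.09% of all genes, with a median log2 ratio of 0.30. With the GC trend removed 2 of the 7 stayed past 2-fold towards PB2, Furin and Ero1lb, against 9.08% of all genes, and 2 passed towards the zygote, against 11.0%. Furin, a proprotein convertase, went from a zygote value of 1.4 TPM to 11.5 TPM in PB2, and its relatives Pcsk6 and Pcsk7 from 2.9 to 7.2 TPM and from 0.20 to 1.6 TPM. Ero1lb, an oxidase that supplies disulfide bonds, went from 49.4 to 126.7 TPM, P4hb, a disulfide isomerase, from 41.0 to 87.6 TPM, Calr, a lectin chaperone, from 163.9 to 329.7 TPM, and Mgat1, an early enzyme of N-glycan branching, from 4.5 to 12.4 TPM. Pdia3, the disulfide isomerase that works with calreticulin, lay the other way, with 166.8 TPM in the zygote against 76.1 TPM in PB2. B4galt1, a galactosyltransferase, had 1.0 TPM in the zygote and was listed at 0 in PB2.

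The ZP domain, the module by which zona proteins polymerise, occurs in other proteins as well, and 5 of 13 listed relatives were in the table. Umodl1 was the most abundant, with 355.2 TPM in the zygote, above Zp3 there, against 151.8 TPM in PB2, which gave a log2 ratio of -1.22. GC made up 54.2% of its transcript, close to the share in Zp1, and removal of the GC trend left -1.82. By the log2 ratio Umodl1 alone passed 2-fold towards the zygote, as did 8.09% of all genes compared. With the GC trend removed Dmbt1 and Tectb did so too, against 11.0% of all genes. In plain TPM Dmbt1 and Tectb were already more than 2-fold apart, with zygote values 2.78 and 6.5 times those of PB2. The 1 TPM added to each value kept them short of 2-fold in the log2 ratio. Tgfbr3, which encodes the co-receptor betaglycan, had 11.3 TPM in the zygote against 11.4 TPM in PB2. Zpld1 had 6.3 and 4.8 TPM, Dmbt1 2.5 and 0.90 TPM, and Tectb 1.3 and 0.20 TPM. The median log2 ratio of these 5 was -0.88, which moved to -0.33 when only genes with at least 5 TPM in either library were taken.

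**Figure D4:**
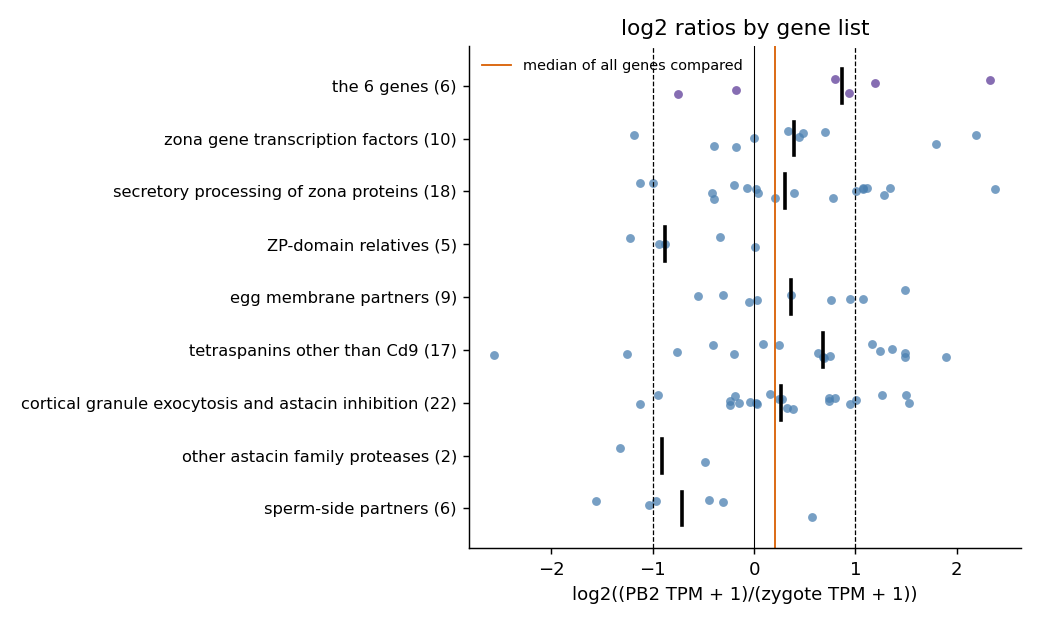
log2 ratio of PB2 over zygote for each gene compared (points) in the 6 genes and in the lists of related genes, with the number compared in parentheses. Black bars are medians, dashed lines mark 2-fold, and the orange line is the median of all genes compared, 0.21. Most lists spread to both sides of 0. The relatives with a ZP domain and the sperm-side genes lie mostly towards the zygote, and both other astacin proteases lie there.

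Egg membrane genes that act beside Cd9 and Juno were listed as 16 genes, of which 9 were compared, with a median log2 ratio of 0.37. Past 2-fold were 2 of the 9, both towards PB2, against 18.9% of all genes towards PB2 and 8.09% towards the zygote. Both, Rdx and Cd81, stayed past 2-fold with the GC trend removed, against 9.08% of all genes. Itgb5 then passed towards the zygote, against 11.0%. Rdx, which encodes radixin, a linker of membrane and actin, was by far the most abundant, with 1295 TPM in the zygote against 2720 TPM in PB2. Cd81, the tetraspanin closest to Cd9 in its role at fertilization, was scarce, at 0.50 TPM in the zygote against 3.2 TPM in PB2. The integrin subunits Itga6 (50.6 and 86.4 TPM), Itga9 (116.1 and 112.0 TPM) and Itgb1 (31.7 and 32.4 TPM) and the complement regulator Cd55 (182.0 and 147.4 TPM) were within 2-fold. Itgb3 had 9.2 and 18.6 TPM, and Itgb5, Ezr, Itgav and Msn stayed at or below 2.1 TPM in both libraries.

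Among the other tetraspanins, 17 of 30 listed were compared, with a median log2 ratio of 0.68, and 0.087 with the GC trend removed. Past 2-fold were 6 towards PB2, Cd81 among them, and 2 towards the zygote, against 18.9% and 8.09% of all genes. With the GC trend removed 4 passed towards PB2, Cd81, Tspan14, Tspan33 and Tspan5, against 9.08% of all genes. Towards the zygote 2 then passed, Tspan8 and Tspan3, against 11.0%. Tspan14 was the most abundant, with 76.4 TPM in the zygote against 197.9 TPM in PB2, and thus above Cd9 in both. Tspan33 went from 3.7 to 16.5 TPM, Tspan17 from 1.0 to 4.6 TPM, Tspan5 from 8.9 to 22.5 TPM and Cd151 from 5.0 to 12.4 TPM. Tspan9 had 36.9 and 60.0 TPM. Towards the zygote lay Tspan8, with 10.2 TPM in the zygote against 0.90 TPM in PB2, and Tspan12, with 13.8 and 5.2 TPM.

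The genes around Astl were examined through 30 genes of cortical granule release and ovastacin inhibition, of which 22 were compared. Past 2-fold were 4 towards PB2 and 1 towards the zygote, against 18.9% and 8.09% of all genes, with a median log2 ratio of 0.26. With the GC trend removed only Nsf stayed past 2-fold towards PB2, against 9.08% of all genes. Myh9, a non-muscle myosin heavy chain, then joined Pdia3 towards the zygote, against 11.0%. Nsf, the ATPase that recycles membrane fusion complexes, went from 53.2 to 155.2 TPM, and Rab3a, a GTPase of regulated secretion, from 26.6 to 77.2 TPM. Map2k1, a kinase that activates ERK, went from 168.5 to 406.5 TPM and Calr, named above, was also on this list. The 1 gene towards the zygote in the values as deposited was Pdia3, named above as well. Rab11a, a GTPase of recycling endosomes, had 208.2 and 260.8 TPM. Fetub, which encodes fetuin-B, the inhibitor that restrains ovastacin before fertilization, had 59.3 TPM in the zygote against 51.8 TPM in PB2, so Astl stood below Fetub in the zygote and above it in PB2. Of the other astacin proteases listed, Tll1 had 13.4 and 9.3 TPM and Mep1b 4.0 and 1.0 TPM, so neither shared the direction of Astl.

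Of 23 genes of the sperm side, 6 were in the table, with a median log2 ratio of -0.71. Of these, 0 passed 2-fold towards PB2 and 2 towards the zygote, against 18.9% and 8.09% of all genes. With the GC trend removed 4 passed towards the zygote, Spam1, Zpbp2, Izumo4 and Dcst2, against 11.0% of all genes. Hyal5 had 3.7 TPM in the zygote against 1.4 TPM in PB2. That is 2.64-fold in plain TPM, but its log2 ratio of -0.97 fell short of 2-fold. Spam1, which encodes the sperm hyaluronidase PH-20, had 75.8 TPM in the zygote against 25.0 TPM in PB2, and Zpbp2, which encodes an acrosomal protein, had 3.5 and 1.2 TPM. Zp3r, an acrosomal gene named as a ZP3 receptor, had 8.3 TPM in the zygote against 12.8 TPM in PB2. Izumo4 and Dcst2 had 3.2 and 2.4 TPM and 3.5 and 2.3 TPM, and the gene of the sperm ligand of Juno, Izumo1, was not analysed here. Of 10 sperm and spermatid markers 3 were in the table, Prm2 with 19.8 TPM in the zygote against 22.0 TPM in PB2, Ldhc with 5.1 and 1.9 TPM and Akap4 with 1.0 and 0.60 TPM. Whether these transcripts came from sperm or from the oocyte was not tested.

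**Figure D5:**
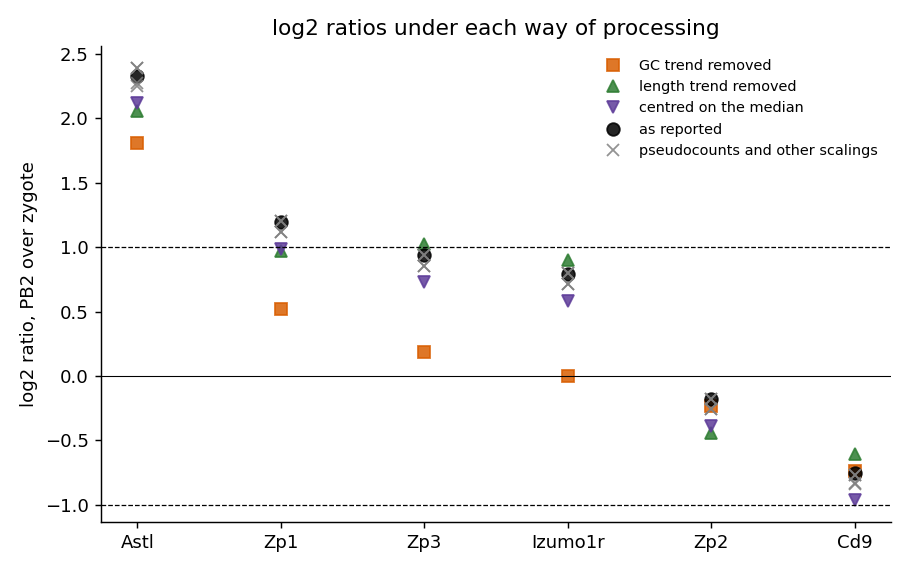
log2 ratio of PB2 over zygote of each of the 6 genes as reported (black circles) and under each other way of processing (other symbols), with dashed lines at 2-fold. Astl stays above 1 throughout, Zp1, Zp3 and Izumo1r drop most with the GC trend removed, and Zp2 and Cd9 stay below 0.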

How the data were processed

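Both libraries were made by the authors from polyadenylated RNA with a single-cell full-length amplification kit, which can change the proportions of transcripts. Per the labels' processing notes and the supplementary methods, reads were base-called with CASAVA, aligned with HISAT2 2.0.4, counted per gene with HTSeq 0.6.1p1 and normalized with DESeq2 1.18.1. The notes name OryCun2.0, a rabbit assembly, and GRCm38, while all 11262 identifiers of the table carry the mouse prefix. The authors deposited TPM values with 1 decimal. How TPM was computed is not given in the sources used here, and the depth of the libraries is unknown. The table sums to 92.7% of a full library in the zygote and 89.8% in PB2, and the rest of each library was not analysed here. The PB2 column is named for the polar body. The other column is named for the 1-cell embryo, not by the title of its sample, and was taken as the zygote because no other sample remained. There were 0 other value columns.

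Genes with at least 1 TPM in either library were compared by the log2 ratio with a pseudocount of 1, and 2-fold counts were made without a test. GC content and length are those of the longest protein-coding transcript in GENCODE M21 (GRCm38), and 10606 of the genes compared had one. Trends were fitted with loess (span 0.3). E-boxes and other motifs were searched after the promoter windows were seen. The members, the 12 gene lists and the alternatives were chosen with earlier results of these data known. The genes named are the members, the 2 genes nearest to each, and, from each list, the genes at least 2-fold apart and the 3 most abundant, with all genes of the lists of ZP-domain relatives, egg membrane genes and zona transcription factors allowed. Canx, Tspan13 and H1foo were among the most abundant of their lists, but their values are not given. Fetub, Izumo4, Dcst2, Cyp11a1, Myh9 and Tspan3 were named after their values were seen. The alternatives were a pseudocount of 0.1 or 0.01, a threshold of 1.5-fold or 4-fold, no filter or a filter at 5 TPM, 3 other scalings, and subtraction of the trend on GC content or length. The 2-fold counts of the lists with the GC trend removed were added after seeing the data. The functions were tested on simulated libraries. The software was matplotlib 3.10.9, statsmodels 0.14.6 and pandas 2.3.3, with scipy 1.17.1 and numpy 2.4.6, under Python 3.11.15.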

Additional observations from a re-analysis of the deposited data

How the results depend on the processing

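No paired analysis was possible because each kind has 1 library. Each of the 6 genes kept the sign of its log2 ratio under the 7 alternatives run on it. The log2 ratio ranged from 1.81 to 2.39 for Astl, 0.52 to 1.20 for Zp1, 0.19 to 1.02 for Zp3, 0.0027 to 0.90 for Izumo1r, -0.44 to -0.18 for Zp2 and -0.96 to -0.61 for Cd9. With the GC trend removed Izumo1r lay in the middle of all genes, of which 50.3% had a larger value. For Zp3 this share was 40.6% and for Zp1 24.8%. Over the results of the members, the lists and all genes, 188 values stayed within the limits set (0.5 on the log2 scale, 1.5 times for a count) and 24 moved. With the GC trend removed the log2 ratio was 1.81 for Astl, 0.52 for Zp1, 0.19 for Zp3 and 0.0027 for Izumo1r, the median of the 6 genes was 0.094, that of the other tetraspanins 0.087, 1 member, Astl, was at least 2-fold higher in PB2, and 963 of all genes were, against 2009. The 2-fold counts of the lists, added after seeing the data, moved there from 7 to 2 towards PB2 for secretory processing, from 4 to 1 towards PB2 and 1 to 2 towards the zygote for cortical granule release, and towards the zygote from 1 to 3 for ZP-domain relatives, 2 to 4 for sperm-side genes and 0 to 1 for egg membrane genes. With the length trend removed the count of all genes was 1284, and the 2 members past 2-fold were Astl and Zp3. With the log2 ratios centred on the median of all genes, 1 member was at least 2-fold higher in PB2. At 1.5-fold 4 members passed towards PB2 and 1 towards the zygote, with 3642 and 1924 of all genes, and at 4-fold 1 member passed towards PB2, with 264 and 74 of all genes, which follows from the thresholds. With at least 5 TPM in either library the median of the ZP-domain relatives was -0.33, since fewer genes were taken. For the changes with the GC and length trends the cause was not tested. Counting error cannot be given without the depth, and limits genes of a few TPM most.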
